A study of Mus musculus with 6 samples.

Results

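The clustered replication histone genes were taken as the rows of the expression table whose symbol begins with Hist1h, Hist2h, Hist3h or Hist4h and whose gene type is protein coding. The rule found 7 of the 14515 listed genes. They are Hist1h1c and Hist1h1d, which encode the linker histones H1.2 and H1.3, Hist3h2a, which encodes an H2A, Hist1h2bc, Hist1h2bh and Hist2h2be, which encode H2B, and Hist1h4i, which encodes H4. GENCODE release M21 annotates 67 protein-coding genes under this naming scheme, and the other 60 were not analysed here. Of the annotated genes, 2 of 6 for H1, 1 of 18 for H2A, 3 of 18 for H2B, 0 of 12 for H3 and 1 of 13 for H4 had a row.

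The data are 6 libraries of total RNA from mouse muscle stem cells, with a pair of libraries under each of 3 labels. The labels are mdx/Ripk3mKO, which carries the mdx mutation of dystrophin together with a change of the necroptosis kinase gene Ripk3, mdx, which carries the dystrophin mutation alone, and wild type (wt). The labels give neither strain nor age, and do not spell out mKO or the promoter of any Cre. Cells were sorted, 10000 to 20000 per library, and nothing says whether the 2 libraries of a label came from separate animals, and p-values therefore cover only library-to-library spread, possibly technical. The sample labels describe quiescent satellite cells, whereas the series text speaks of wild-type cells that were activated and kept for 72 hours under a transwell with wt, mdx or mdx/Ripk3mKO cells, so the labels may name the cells above and not those sequenced.

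Histones are the proteins around which DNA is wound, and a dividing cell has to make a new set of them each time it copies its genome. Most of that supply comes from genes packed in clusters, which have no introns and are read during S phase. Their messages do not end in a poly(A) tail. They end in a short stem-loop that is bound by the protein Slbp, and the RNA is cut just behind it with the help of the U7 small nuclear RNP. Several of these genes are also known to make longer messages that run past the stem-loop to a poly(A) signal, mainly in cells that leave the cell cycle and differentiate. Replacement histones such as H3.3 and H2A.Z are encoded elsewhere by genes with polyadenylated messages, and are made outside S phase too.

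The stem-loops of the members are shown because they mark where the short S-phase form of each message would end. Each sequence is 30 bases of the GENCODE M21 transcript, read 5′ to 3′, with the bases that match the searched pattern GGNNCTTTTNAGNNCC in capitals.
Hist1h1c, mm10 chr13:23739507-23739536, plus strand: caaaaGGCTCTTTTCAGAGCCaccactccc
Hist1h1d, chr13:23555782-23555811, plus strand: caaacGGCTCTTTTCAGAGCCacccacaac
Hist1h2bh, chr13:23542919-23542948, minus strand: ccaaaGGCTCTTTTCAGAGCCactcaagac
Hist3h2a, chr11:58955167-58955196, plus strand: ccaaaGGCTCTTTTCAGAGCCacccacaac
Hist1h4i, chr13:22040957-22040986, minus strand: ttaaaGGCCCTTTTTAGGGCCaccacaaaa
The H1, H2A and H2B genes shown share one 16-base stem-loop, and the H4 gene differs from them in the stem and in the loop. On the transcript strand the pattern was held by the longest transcript of 5 of the 7 members, of 38 of the 60 other annotated clustered genes and of 0.183% of all 12560 protein-coding genes of the table with an annotated transcript. It was not matched in Hist2h2be or in Hist1h2bc, whose annotated transcript is spliced.

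In all 5 genes the annotated transcript did not stop at the stem-loop. It ran on for 330 bases in Hist1h4i, 840 in Hist1h1c, 1214 in Hist1h2bh, 1643 in Hist3h2a and 4884 in Hist1h1d. The median was 1214 bases over these 5 and 54 bases over the 38 other clustered genes with a match, of which 13 ran on for more than 200 bases. Exon length, summed over each gene's exons, lay between 727 and 7425 bases in the 7 members with a median of 1679, against a median of 526 in the other 60. RefSeq draws 6 of the 7 genes shorter on the same build, the exception being Hist2h2be with 2667 bases against 2620. GENCODE reached past the RefSeq 3′ end by 324 bases in Hist1h4i, 836 in Hist1h1c, 1209 in Hist1h2bh, 1638 in Hist3h2a and 4879 in Hist1h1d.

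Close to the 3′ end of 4 members stood a poly(A) signal, the letters read by the cleavage and polyadenylation machinery of ordinary messages. These ends are shown on the same build, 30 bases each, with the signal in capitals.
Hist1h1c, chr13:23740337-23740366, plus strand: cttctAATAAAaagcgtttagttttcattc
Hist1h4i, chr13:22040636-22040665, minus strand: tctgtttacATTAAAagtattctatgctaa
Hist3h2a, chr11:58956792-58956821, plus strand: tgcccAATAAAataagagtacgtgtataac
Hist2h2be, chr3:96223709-96223738, plus strand: ttattattAATAAAgttaccgattagtttc
AATAAA or ATTAAA, searched on the transcript strand, lay within the last 50 bases of the longest transcript in 4 of the 7 members (57.1%), in 12 of the other 60 clustered genes (20.0%) and in 74.6% of all protein-coding genes of the table. A match describes letters only. The table gives 1 value per gene, so it does not tell which part of a gene the reads covered.

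**Figure D1:**
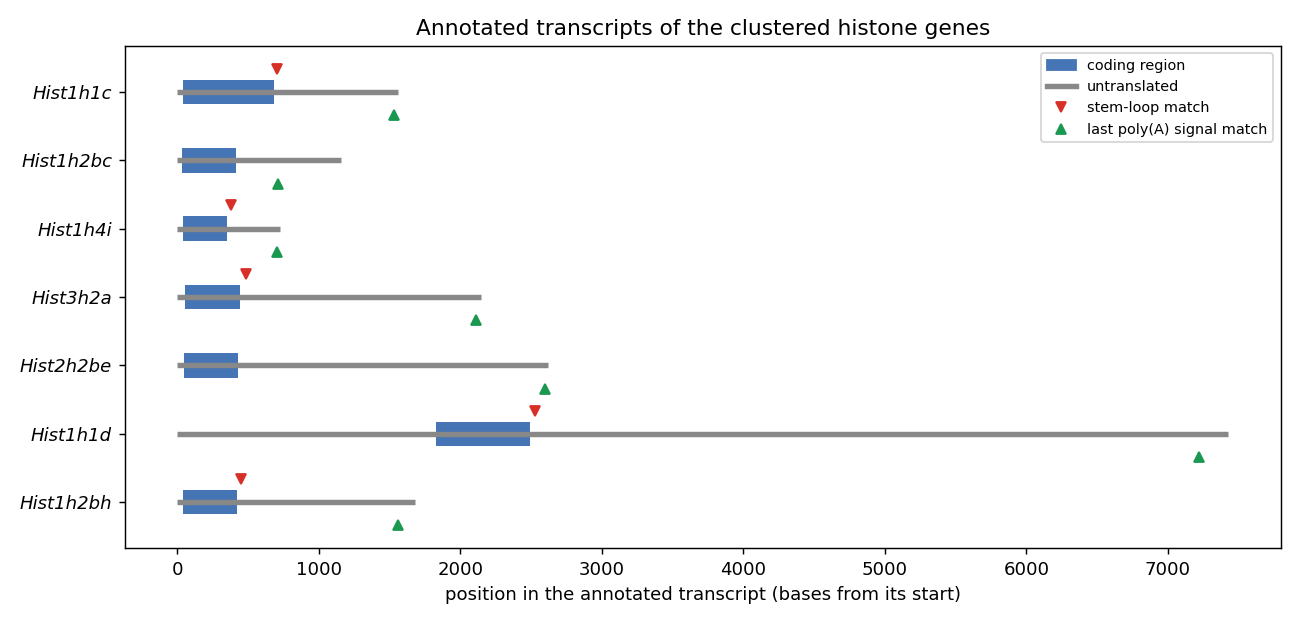
Annotated GENCODE M21 transcripts of the 7 members, drawn to scale in bases from the transcript start (horizontal axis), with the coding region as a box. Red triangles above a line mark the stem-loop match, found in 5 genes, and green triangles below it the last AATAAA or ATTAAA. In each of the 5 genes the transcript continues past the stem-loop, by 330 to 4884 bases.

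The values are read counts that were scaled between libraries and rounded, called scaled counts here. Library totals lay between 20611974 and 21037153 scaled counts. The scaling hides the depth, which was estimated from whole numbers skipped or doubled by rounding as 25349769 and 25025783 reads in the mdx/Ripk3mKO libraries, 19360429 and 19663823 in mdx and 18896519 and 17994044 in wt. Library 1 of mdx/Ripk3mKO stood apart in the X-inactivation RNA Xist, at 6918 scaled counts against 164 to 666 in the others. Ripk3 itself was at 17 and 33 scaled counts in mdx/Ripk3mKO, 23 and 36 in mdx and 45 and 32 in wt, and the libraries of the 3 labels overlapped, but a gene-wide count need not show the loss of some exons. Myog, a factor of differentiating muscle cells, was at 26795 to 35263 scaled counts and Mki67, a marker of dividing cells, at 13883 to 16904. Quiescent satellite cells are known to lack both, so these levels go against the label of quiescence. Pax7, the defining factor of satellite cells, was at 1755 to 2119. Of the marker lists for other cells, 3 of 10 macrophage, 5 of 8 endothelial, 4 of 8 fibro-adipogenic, 0 of 6 erythroid and 0 of 8 lymphocyte genes had a row, and the sum over each of these lists was at most 110 scaled counts in any library. Of the pericyte and smooth muscle genes 5 of 8 had a row, with sums of 39213 to 54785 that come mostly from Acta2. Within that list Pdgfrb was at 330 and 248 in mdx/Ripk3mKO, 409 and 444 in mdx and 333 and 309 in wt, and Rgs5 at 20 and 17, 22 and 27, and 11 and 18. Both were higher in the mdx libraries than in all others, and neither passed the adjusted threshold (limma, lowest adjusted p = 0.0836). In Acta2, Notch3 and Mcam, the other rows of that list, the mdx libraries overlapped another label. Their log2 differences between mdx and wt were -0.02, 0.19 and -0.08 (limma). The part of these genes in the histone results was not tested.

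Together the 7 members made up a small part of these libraries, in which fewer cells of a type and less RNA per cell cannot be told apart. Their scaled counts summed to 702 and 679 in the mdx/Ripk3mKO libraries, 655 and 765 in mdx and 663 and 625 in wt. The group means were 690.5 ± 16.3, 710.0 ± 77.8 and 644.0 ± 26.9 scaled counts in that order (SD, n = 2 each). As a share of the library total the sums came to 0.00302% to 0.00371%. The sum in mdx/Ripk3mKO lay above both wt libraries and inside the range of the mdx libraries, and the mdx and wt libraries overlapped. Hist1h1c and Hist1h2bc alone held 72.5% to 76.9% of the sum in each library.

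Per kilobase of exon, the members fell far apart. Hist1h2bc averaged 217.0 ± 17.2 scaled counts per kilobase over the 6 libraries (SD), Hist1h1c 165.4 ± 18.3 and Hist1h4i 111.6 ± 11.9. Hist3h2a followed at 18.6 ± 2.0, Hist2h2be at 12.5 ± 2.3, Hist1h2bh at 5.6 ± 1.9 and Hist1h1d at 1.3 ± 0.9. In this order the ranges of neighbours over the 6 libraries did not overlap, except for Hist1h2bc and Hist1h1c. Among protein-coding genes with an annotated length, whose median was 115.9 per kilobase, Hist1h2bc stood at percentile 66.4, Hist1h1c at 59.0, Hist1h4i at 49.0 and the other 4 at 1.1 to 19.0. These levels rest on the annotated length, and a shorter true transcript would give a higher level per kilobase.

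Replacement histones stood higher as a set. Of 15 such genes on the list, 11 had a row, with a median of 306 scaled counts per kilobase. H2afz, which encodes H2A.Z, averaged 3097 per kilobase and H3f3b, which encodes H3.3, averaged 2533. The lowest was H2afj at 84.7, below Hist1h2bc at 217.0, Hist1h1c at 165.4 and Hist1h4i at 111.6, so the levels of the sets overlapped. Summed per kilobase, the clustered members came to 541 and 531 in mdx/Ripk3mKO, 508 and 588 in mdx and 530 and 493 in wt, and the replacement histones to 8984 and 9419, 8788 and 8869, and 9098 and 8889 in the same libraries. The clustered members were thus 5.25% to 6.22% of both sets together. That share covers only the 7 clustered genes with a row and leaves out the 60 other annotated ones. It is therefore not the share of all clustered histone messages. In the same libraries the list of 30 S phase genes had a median of 237 scaled counts per kilobase, with genes between 20.5 and 7210. The highest was the ribonucleotide reductase subunit Rrm2, at 18316 to 21072 scaled counts, and the replication clamp Pcna was at 3609 to 3841.

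**Figure D2:**
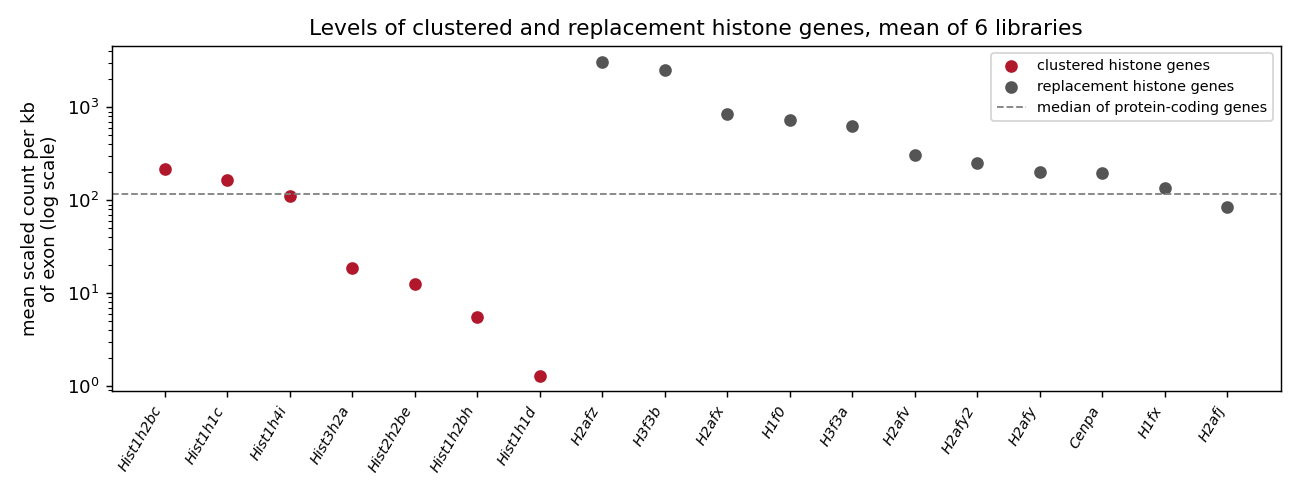
Mean scaled count per kilobase of exon over the 6 libraries (log axis) for the 7 clustered histone genes in red and 11 replacement histone genes in grey, with the median of protein-coding genes, 115.9, as a dashed line. Hist1h2bc and Hist1h1c lie above that line and the other 5 members below it, while 10 of the replacement genes lie above it.

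Hist1h1d, 1 of the 2 linker histone genes, showed the largest difference of any member from wt under both other labels. Linker histone H1 binds where DNA enters and leaves the nucleosome and helps to compact chromatin. Hist1h1d (ENSMUSG00000052565, mm10 chromosome 13, 23553262 to 23560686, plus strand, 1 exon) had 14 and 17 scaled counts in mdx/Ripk3mKO, 14 and 9 in mdx and 1 and 2 in wt. Both wt libraries were below all 4 others, and mdx/Ripk3mKO and mdx met at 14. Between mdx and wt the difference was 2.32 ± 0.52 on the log2(scaled count + 1) scale (limma, moderated SE, 95% interval 1.21 to 3.44, adjusted p = 0.32). Between mdx/Ripk3mKO and wt it was 2.75 ± 0.52 (1.63 to 3.86, adjusted p = 0.486). Neither passed the adjusted threshold of 0.05, and the F-test over the 3 labels did not either (limma, adjusted p = 0.0973).

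Hist1h1d was the most variable member, with a coefficient of variation of 70.7% over the 6 libraries, and the lowest per kilobase. It passed the filter on low values (at least 10 in at least 2 libraries) only through both mdx/Ripk3mKO libraries and 1 mdx library, and in a fit of the mdx and wt libraries alone it did not enter. Its differences from wt are therefore a description of these libraries. In estimated reads it had 38 in mdx/Ripk3mKO, 22 in mdx and 3 in wt. Relative to estimated depth that is 6.96 times as many in mdx as in wt (95% interval 2.09 to 36.3, counting error only) and 9.35 times as many in mdx/Ripk3mKO as in wt (2.97 to 47.4). With a pseudocount of 5 the log2 differences were 1.33 and 1.66, and without library 1 of mdx/Ripk3mKO, the library high in Xist, the difference of mdx/Ripk3mKO from wt was 2.88. Depth ran in the same order as the values, deepest in mdx/Ripk3mKO and shallowest in wt, and its part in the difference beyond that scaling was not tested.

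Set against each other, mdx/Ripk3mKO and mdx libraries did not separate for Hist1h1d, with a difference of 0.42 ± 0.52 (limma, 95% interval -0.69 to 1.54, adjusted p = 0.817). Its transcript is the longest of the 7, with 1828 bases before the coding region and 4931 after it, while RefSeq draws a gene of 776 bases, from 23555032 to 23555807. A read anywhere in the longer model counts for the gene. Which part the few reads fell in was not analysed here, and 2.3% of its 50-base stretches also occur in another annotated transcript.

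Hist1h1c, the other linker histone gene and the most abundant member by count, lies on the same chromosome (ENSMUSG00000036181, 13, 23738808 to 23740367, plus strand, 1 exon). It had 274 and 259 scaled counts in mdx/Ripk3mKO, 233 and 306 in mdx and 231 and 245 in wt. Both mdx/Ripk3mKO libraries were above both wt libraries, and the mdx libraries overlapped both other labels. The difference was 0.16 ± 0.13 between mdx/Ripk3mKO and wt (limma, 95% interval -0.11 to 0.44, adjusted p = 1) and 0.17 ± 0.13 between mdx and wt (-0.11 to 0.44, adjusted p = 0.857). The 2 linker genes together averaged 282.0 ± 8.5 scaled counts in mdx/Ripk3mKO, 281.0 ± 48.1 in mdx and 239.5 ± 10.6 in wt (SD, n = 2 each).

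H2B, a core histone paired with H2A in the nucleosome, had 3 rows. Hist1h2bc (ENSMUSG00000018102, 13, 23684199 to 23692908, plus strand) is the only member with 2 exons in its longest transcript, and its product is known as H2B type 1-C/E/G because several clustered genes encode the same protein. It had 266 and 233 scaled counts in mdx/Ripk3mKO, 257 and 273 in mdx and 255 and 221 in wt. The mdx libraries lay just above wt, by 2 scaled counts at the nearest pair, and mdx/Ripk3mKO overlapped both. The difference between mdx and wt was 0.16 ± 0.12 (limma, 95% interval -0.09 to 0.41, adjusted p = 0.854).

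Hist2h2be (ENSMUSG00000068854, chromosome 3, 96221119 to 96223738, plus strand) and Hist1h2bh (ENSMUSG00000114456, chromosome 13, 23541714 to 23543392, minus strand) were the low H2B genes. Hist2h2be had 26 and 36 scaled counts in mdx/Ripk3mKO, 33 and 40 in mdx and 37 and 25 in wt. Hist1h2bh had 12 and 5 in mdx/Ripk3mKO, 7 and 9 in mdx and 14 and 9 in wt. For both genes the libraries of all 3 labels overlapped. Between mdx and wt the differences were 0.25 ± 0.29 for Hist2h2be and -0.45 ± 0.51 for Hist1h2bh, with 95% intervals of -0.37 to 0.86 and -1.54 to 0.63 (limma). With Hist1h1d, these genes had the widest intervals of the 7, so smaller differences were not detectable at this depth.

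Hist3h2a, the H2A row (ENSMUSG00000078851, chromosome 11, 58954685 to 58956830, plus strand, 1 exon), had 39 and 36 scaled counts in mdx/Ripk3mKO, 38 and 46 in mdx and 36 and 44 in wt. Hist1h4i, the H4 row (ENSMUSG00000060639, chromosome 13, 22040636 to 22041362, minus strand, 1 exon), had 71 and 93 in mdx/Ripk3mKO, 73 and 82 in mdx and 89 and 79 in wt. The labels overlapped for both. The H4 differences were -0.11 ± 0.19 between mdx and wt and 0.07 ± 0.19 between mdx/Ripk3mKO and mdx (limma).

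**Figure D3:**
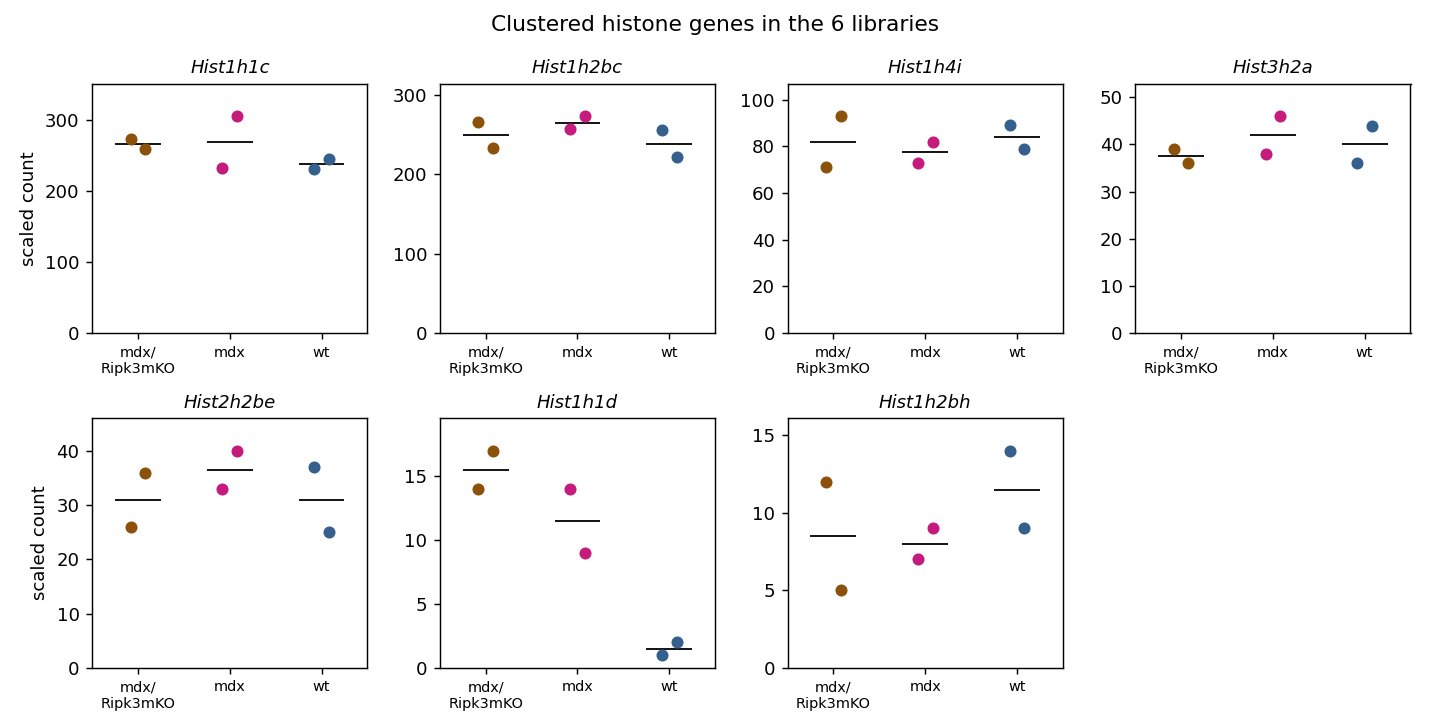
Scaled counts of the 7 members in each of the 6 libraries, as points, with a bar at the mean of the 2 libraries of each label, in the order mdx/Ripk3mKO, mdx and wt. Hist1h1d is at 1 and 2 in wt and at 9 to 17 elsewhere, while for each of the other 6 genes wt overlaps at least 1 of the other labels.

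Over the whole set, 0 of 7 members passed the adjusted threshold in any comparison or in the F-test (limma). Between mdx and wt 0.0071% of the 14077 tested genes passed it, between mdx/Ripk3mKO and mdx 0.206%, between mdx/Ripk3mKO and wt 0%, and in the F-test 0.0781%. At an unadjusted p under 0.05 the member count was 1 between mdx and wt, where 6.46% of all genes passed, 0 between mdx/Ripk3mKO and mdx, where 11.6% passed, and 1 between mdx/Ripk3mKO and wt, where 3.32% passed. The single member was Hist1h1d in both. All 7 members entered the tests, and the 3 comparisons share libraries. Hist1h1d entered through the labels where it was high, and Hist1h2bh only through library 1 of mdx/Ripk3mKO and library 1 of wt.

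The members did not move as a block. Between mdx and wt 5 members were higher and 2 lower, with a median log2 difference of 0.16 against 0.00 over all tested genes, but without mdx library 2 the count was 3 higher and the median -0.03. Between mdx/Ripk3mKO and mdx 2 were higher and 5 lower with a median of -0.02. That count was 4 higher without mdx library 2, 4 higher without mdx/Ripk3mKO library 2 and 1 higher without mdx library 1, and 5 were higher when GC content and exon length were corrected for. Between mdx/Ripk3mKO and wt 4 were higher and 3 lower with a median of 0.01. Without wt library 1 the median was 0.15, but Hist1h2bh then failed the filter on low values and was left out of it. The libraries of 2 labels were fully apart for 2 of 7 members between mdx and wt, Hist1h1d and Hist1h2bc, both higher in mdx, where 35.9% of all genes were apart in either direction. They were apart for 0 of 7 between mdx/Ripk3mKO and mdx (41.3% of all genes) and for 2 of 7 between mdx/Ripk3mKO and wt (29.4%), Hist1h1d and Hist1h1c, both higher in mdx/Ripk3mKO. In none of the 3 comparisons was the members' share above that of all genes.

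**Figure D4:**
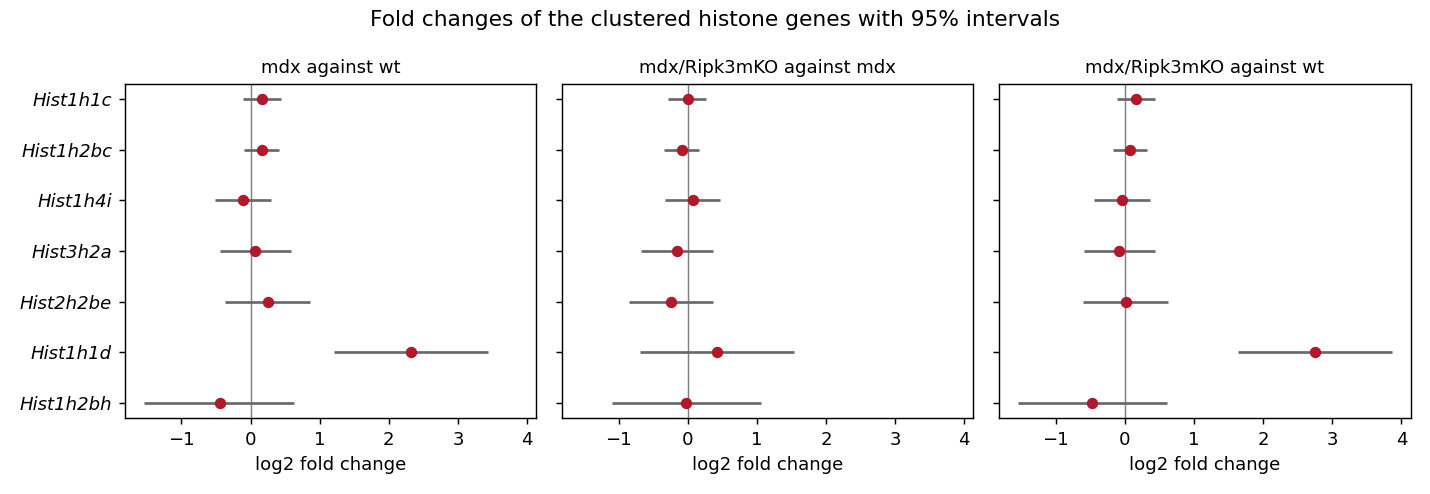
Log2 difference of each member on the log2(scaled count + 1) scale with its 95% interval from limma, for mdx against wt, mdx/Ripk3mKO against mdx and mdx/Ripk3mKO against wt. The intervals of Hist1h1d against wt, 1.21 to 3.44 and 1.63 to 3.86, lie to the right of 0, and all other intervals include 0. The intervals are not adjusted for the number of genes, and neither Hist1h1d difference passed the adjusted threshold (limma, adjusted p = 0.32 and 0.486).

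Histone genes resemble one another, which bears on what a count can say. Of all 50-base stretches, 31.5% of Hist3h2a, 30.1% of Hist1h2bc, 28.9% of Hist1h4i, 17.9% of Hist1h2bh, 8.5% of Hist1h1c and 0.0% of Hist2h2be occur in another annotated transcript, so reads there could be dropped or assigned elsewhere. Hist3h2a also overlaps 708 bases of exons of Trim17, a gene on the same strand, within which its coding region lies. Trim17 had 6 to 14 scaled counts. A further 138 bases overlap an exon on the opposite strand, and the use of strand in counting is not stated.

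The machinery that makes and destroys these messages was well covered. Of 28 genes for histone transcription and 3′ end processing all were tested, 11 higher and 17 lower between mdx and wt, 14 and 14 between mdx/Ripk3mKO and mdx, and 13 and 15 between mdx/Ripk3mKO and wt. Slbp, the stem-loop binding protein, had 760 and 745 scaled counts in mdx/Ripk3mKO, 723 and 787 in mdx and 760 and 780 in wt, with the labels overlapping. Npat, the coactivator that gathers transcription factors at histone clusters, differed by -0.09 ± 0.06 between mdx and wt and by -0.01 ± 0.06 between mdx/Ripk3mKO and mdx. Sympk, the scaffold of the cleavage complex, had 3456 and 3580 scaled counts in mdx/Ripk3mKO and 3079 and 3061 in mdx, a difference of 0.20 ± 0.06 (limma, adjusted p = 0.188).

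None of the 109 genes on the 5 lists of related genes passed the adjusted threshold in any comparison (limma, lowest adjusted p = 0.159). That lowest value belonged to H2afx, the H2A.X gene whose protein is phosphorylated at DNA breaks, which had 1249 and 1252 scaled counts in mdx/Ripk3mKO, 1012 and 1087 in mdx and 1230 and 1131 in wt. The mdx libraries were below all others, and the difference of mdx/Ripk3mKO from mdx was 0.25 ± 0.07. Among the 11 replacement histones 4 were higher and 7 lower between mdx and wt, 9 and 2 between mdx/Ripk3mKO and mdx, and 9 and 2 between mdx/Ripk3mKO and wt. The 20 genes for histone message decay and translation had medians of 0.01, -0.04 and -0.03 in the same comparisons, and the 20 histone chaperones, which carry histones to DNA, -0.01, 0.01 and -0.01. Hjurp, the chaperone of the centromeric histone, had 3364 and 3850 scaled counts in mdx/Ripk3mKO, 3977 and 4294 in mdx and 4125 and 3990 in wt. Both mdx/Ripk3mKO libraries were below all others, with a difference from mdx of -0.20 ± 0.07 (limma, adjusted p = 0.259).

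S phase genes, which are active when the clustered histone genes are, stood at 8 higher and 22 lower of 30 between mdx and wt, 25 and 5 between mdx/Ripk3mKO and mdx, and 17 and 13 between mdx/Ripk3mKO and wt. Over all tested genes 6898 were higher and 7163 lower, 6927 and 7136, and 7107 and 6957 in the same order. The S phase medians were -0.02, 0.04 and 0.00, against 0.00 over all genes. At an unadjusted p under 0.05 the S phase list held 1 lower gene, 2 higher genes and 0 genes in these 3 comparisons. The shares of all tested genes at that level, in either direction, were 6.46%, 11.6% and 3.32% (limma).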

How the data were processed

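Total RNA libraries were made with version 2 of a low-input SMARTer stranded kit, per the labels' protocols. Per the submitters' processing notes, the tools were DESeq2 1.18.1, featureCounts 1.6.3, STAR 2.6.1d and Trimmomatic 0.36, with the mm10 build and no role given for each. The deposited values are whole numbers that behave as counts already scaled between libraries by the authors and rounded (size factors of 1.002 in every library), so they were treated as a score, not as raw counts. Both mdx columns carry the same header, and their library numbers are names only.

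Values were tested as log2(scaled count + 1) with limma 3.58.1 in R 4.3.3, with mean trend and robust moderation, in 1 fit over 6 libraries with 3 residual degrees of freedom. Genes with at least 10 in at least 2 libraries entered (14077 of 14515), and p-values were adjusted over all of them (Benjamini-Hochberg, threshold 0.05). The procedure was checked on simulated data. Fold changes of low genes are understated by the pseudocount. Reads per gene were estimated from the steps that scaling left in the values, with exact 95% intervals for counting error. Sequences, lengths and overlaps come from GENCODE M21 transcripts on GRCm38 (mm10), and RefSeq spans from a table of the same build. Coordinates of all 7 members were identical in the table and GENCODE.

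The members and lists were chosen with earlier results of these data known. All 7 members are named. From the lists of related genes the rule allowed up to 4 with the smallest p of the F-test, and always Slbp and Npat. H3f3b, H2afj and Pcna were named after their values were seen, as were the genes given as sample checks. Alternatives changed the pseudocount, filter, scaling, moderation, libraries fitted, GC and length correction and the replicate block.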

Additional observations from a re-analysis of the deposited data

How the results depend on the processing

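The number of members past the threshold was 0 under every alternative run. Of 271 member fold changes recomputed, 246 kept their direction and 25 reversed, none of them for Hist1h1d, which kept its direction in 39 of 39. Against wt Hist1h1d could hardly have reversed, as both wt libraries were below all others, so that count is no support. Its difference between mdx and wt lay between 1.33 and 2.61 (adjusted p 0.123 to 0.992), between mdx/Ripk3mKO and mdx between 0.13 and 0.72 (0.675 to 0.98) and between mdx/Ripk3mKO and wt between 1.66 and 3.04 (0.339 to 1). Between mdx/Ripk3mKO and mdx, correction for GC content and length gave 5 members higher, with Hist1h1c and Hist1h2bc at 0.01 and Hist1h2bh at 0.08, and Hist1h2bh was at 0.01 with a pseudocount of 5 and at 0.16 after quantile normalization. Hist2h2be between mdx/Ripk3mKO and wt was 0.01 as reported and just below 0, at -0.00, when scaled to the library total. The cause was not tested. Leaving out each library in turn, where a lone library is assumed to vary like the others, gave these ranges. Without library 1 of mdx/Ripk3mKO or library 1 of wt, Hist1h2bh failed the filter on low values. Its ranges therefore lack these runs, and the counts and medians of these runs are over the remaining members. Between mdx and wt 3 to 5 members were higher, with a median of -0.03 to 0.20, Hist1h1c at -0.03 to 0.36, Hist3h2a at -0.07 to 0.21 and Hist2h2be at -0.03 to 0.52. Between mdx/Ripk3mKO and mdx 1 to 4 were higher, with a median of -0.18 to 0.13, Hist1h1c at -0.20 to 0.19, Hist1h2bc at -0.18 to 0.01, Hist1h4i at -0.12 to 0.26 and Hist1h2bh at -0.18 to 0.54. Between mdx/Ripk3mKO and wt the median was -0.03 to 0.15, with Hist1h2bc at -0.03 to 0.17, Hist1h4i at -0.24 to 0.15, Hist3h2a at -0.23 to 0.06, Hist2h2be at -0.27 to 0.28 and Hist1h2bh at -0.76 to 0.09. With the replicate block, mdx/Ripk3mKO against wt had 0 members past the threshold, 4 higher, a median of 0.01 and Hist1h1d at 2.75 (adjusted p = 1). Same-numbered libraries share only a number (correlation of deviations -0.01), and the mdx columns carry no distinct number. Depth limits Hist1h1d, Hist1h2bh and Hist2h2be most, the members with the lowest counts and the widest intervals.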

Other observations

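Small structured RNAs without a poly(A) tail, chosen after their values were seen, had few scaled counts in these total RNA libraries, without correction for length. Rn7sk, the 7SK RNA that holds the elongation factor P-TEFb, had 12 and 55 scaled counts in mdx/Ripk3mKO, 165 and 12 in mdx and 10 and 11 in wt, so 1 library of each mutant label was high. Rmrp had 0 and 15 in mdx/Ripk3mKO, 1 and 2 in mdx and 7 and 2 in wt, and Rpph1, the RNA of ribonuclease P, 45 and 57, 24 and 20, and 27 and 32 in the same libraries. The 87 small nucleolar RNA genes of the table had a median of 12.5 scaled counts, against 541.5 for protein-coding genes. Short RNAs gather fewer reads at the same level, and the part of length in these counts was not tested. Rn7sk, Rmrp and Rpph1 have exon lengths of 331, 271 and 319 bases, against a median of 4590 for protein-coding genes.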
